A study of Arabidopsis thaliana with 24 samples.

Results

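The genes described here are 41 core cell-cycle genes of Arabidopsis thaliana: the cyclins of the A, B and D types, the cyclin-dependent kinases (CDKs) CDKA;1 (AT3G48750) and CDKB, and the CDK inhibitors KRP1 to KRP7, SIM and SMR1. Symbols are followed by the locus identifier of the count table where a gene is first named, and the cyclins and CDKs then go by that identifier. The genes were taken by locus identifier from a table of read counts for 27416 genes, by a list of names and not by a threshold on measured values. By gene family they form 5 classes, with names of phases used as labels. These are 10 D-type cyclins (G1), AT3G48750 by itself, 9 A-type cyclins (S), 12 B-type cyclins and CDKBs (G2 and mitosis, G2/M), and 9 inhibitors. The labels do not give the phase of every member, since A-type cyclins act in S phase and into G2. Of the 41, 40 had enough counts to be tested, as did 20109 genes in all. The one left out was CYCD7;1 (AT5G02110), a D-type cyclin known from the stomatal lineage, which was at 0 CPM in 14 of 24 libraries and reached 0.763 CPM at most. CPM are counts scaled to a library of 1000000 counts, with library sizes adjusted by edgeR's TMM factors.

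RNA was measured in whole seedlings 6 days old, 5 to 8 of them pooled in each library, after 8 h with a compound or mock. The compounds were coronatine (2), the bacterial mimic of the plant hormone jasmonoyl-isoleucine, its stereoisomer 2e, and a further compound known by the code 12. All were at the 1 µM that the series text gives. The 8 groups of 3 libraries were jaz9-1 with 2, 2e, 12 and mock, and Col-0 with 2, 2e, 12 and mock. Col-0 is the wild type, and jaz9-1 carries a T-DNA insertion in JAZ9, one of the JAZ repressors that jasmonate signalling removes, and was studied as 1 insertion line. Every plant was thus a whole seedling in which dividing cells are a minority, and in such bulk samples fewer cells of a type and less RNA per cell cannot be told apart.

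The libraries held 6226126 to 29404141 counts. The 2 with the fewest were replicate 3 of jaz9-1 with 2, at 6226126 counts, and replicate 1 of jaz9-1 with mock, at 6825267 counts. JAZ9 itself had 37.4, 41.6 and 52.1 CPM in jaz9-1 with 2, against 169, 185 and 185 CPM in Col-0 with 2, and differed by -2.05 ± 0.17 (SE) on the log2 scale (adjusted p = 1.92e-09). With mock JAZ9 had 3.62, 2.26 and 2.21 CPM in jaz9-1, against 4.79, 4.91 and 3.01 CPM in Col-0, a difference that did not pass the test (adjusted p = 0.256). Throughout, adjusted p is the Benjamini-Hochberg value over all 20109 genes from edgeR's quasi-likelihood test, a gene is called at adjusted p below 0.1, and each ± beside a log2 fold change is its standard error. The labels do not say whether the 3 libraries of a group came from separate sowings, so the p-values measure the spread between these libraries.

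Cyclins are the regulatory partners of CDKs. D-type cyclins with CDKA;1 phosphorylate the retinoblastoma protein RBR and so release E2F factors and the start of DNA replication, A-type cyclins act in S phase and into G2, and B-type cyclins with the same kinase and CDKBs drive mitosis. KRP and SIM/SMR proteins bind cyclin-CDK complexes and inhibit them, and in leaves and hair cells they favour endoreduplication. Jasmonates are known to slow division and growth in leaves and roots, and the MYC factors that JAZ proteins repress bind the G-box.

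The stretches upstream of 4 members are shown because the best-known phase-specific control of plant mitotic genes is written there. MYB3R factors bind a motif with the core AACGG in the promoters of G2/M genes, and MYC factors bind the G-box CACGTG. Each run is the 250 bases before the annotated start in RefSeq (TAIR10.1), read 5′ to 3′ on the gene's strand, here the minus strand in every case. For the 3 cyclins capitals mark AACGG or its reverse complement CCGTT, and for KRP1 they mark CACGTG. CYCA1;1 (AT1G44110, chr1:16777353-16777602) and CYCB1;1 (AT4G37490, chr4:17624309-17624558) are the S and G2/M cyclins with lower levels after 2 in jaz9-1, CYCB1;2 (AT5G06150, chr5:1861704-1861953) is a B-type cyclin with the core and no call, and KRP1 (AT2G23430, chr2:9978091-9978340) is an inhibitor with higher levels after 2 in Col-0.
AT1G44110: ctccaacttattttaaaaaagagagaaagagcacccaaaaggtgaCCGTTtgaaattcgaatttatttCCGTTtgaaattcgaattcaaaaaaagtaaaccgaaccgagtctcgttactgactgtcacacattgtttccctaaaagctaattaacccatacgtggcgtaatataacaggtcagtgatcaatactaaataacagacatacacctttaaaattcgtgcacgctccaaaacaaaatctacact
AT4G37490: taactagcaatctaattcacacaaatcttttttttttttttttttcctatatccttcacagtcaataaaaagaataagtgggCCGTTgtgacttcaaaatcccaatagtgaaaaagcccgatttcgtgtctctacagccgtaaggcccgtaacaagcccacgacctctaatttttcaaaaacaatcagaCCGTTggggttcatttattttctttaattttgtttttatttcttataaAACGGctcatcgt
AT5G06150: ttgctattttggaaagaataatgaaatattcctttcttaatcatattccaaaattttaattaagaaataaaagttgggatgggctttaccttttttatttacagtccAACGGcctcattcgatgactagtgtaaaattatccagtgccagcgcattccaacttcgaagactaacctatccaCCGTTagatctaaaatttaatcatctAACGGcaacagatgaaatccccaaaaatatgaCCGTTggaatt
KRP1: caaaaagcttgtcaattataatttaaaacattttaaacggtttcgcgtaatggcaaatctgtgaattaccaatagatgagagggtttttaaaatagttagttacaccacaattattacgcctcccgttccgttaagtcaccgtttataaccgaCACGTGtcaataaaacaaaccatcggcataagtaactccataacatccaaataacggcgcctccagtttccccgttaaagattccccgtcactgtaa

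AT1G44110 held 2 cores, AT4G37490 held 3 and AT5G06150 held 4. The window of KRP1 held 6, the most of any member, left in lower case there because its capitals mark CACGTG alone. Searched on both strands, AACGG was in 20.6% of the 26709 windows of protein-coding genes and in 16 of the 41 members (39.0%). By class it was in 7 of 12 G2/M genes, 4 of 9 S genes, 4 of 9 inhibitors and 1 of 10 D-type cyclins, and it was not in the window of AT3G48750. The G2/M genes without a match were CYCB1;4 (AT2G26760), CYCB2;4 (AT1G76310), CDKB1;1 (AT3G54180), CDKB1;2 (AT2G38620) and CDKB2;1 (AT1G76540). CACGTG, which reads the same on both strands, was in 6.58% of all windows and in 2 members, CYCB2;3 (AT1G20610) and KRP1. The E2F-type octamers TTTCCCGC and TTTGGCGC were in 0.618% and 0.363% of all windows, and the only member with either was CYCD3;3 (AT3G50070), with TTTGGCGC. The hexamer CACATG was in 11.2% of all windows and in 5 of the 41 members (12.2%), among them SMR1 with 2 matches. The window of KRP6 held none of these motifs. A match describes the letters of the window and not a bound site.

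Coronatine moved few of these genes. In jaz9-1 with 2 against jaz9-1 with mock, KRP6 and CYCD5;1 (AT4G37630) were higher and the A-type cyclin AT1G44110, the B-type cyclin AT4G37490, and CYCD4;1 (AT5G65420) and CYCD3;1 (AT4G34160) were lower, 6 of 40 members (15%) where 29.2% of all tested genes were called. In Col-0 with 2 against Col-0 with mock, KRP6 and KRP1 were higher and SMR1 was lower, 3 of 40 members (7.5%) where 23.1% of all tested genes were called. By direction, the 4 members lower in jaz9-1 are 10% of 40, beside 14.2% of all genes. The median standard error of the members for 2 against mock was 0.24 in jaz9-1 and 0.23 in Col-0, beside 0.23 and 0.22 over all tested genes, and their median mean level of 10.03 CPM stood beside 12.3 CPM over all tested genes. Between 2 and mock the median member differed by -0.13 on the log2 scale in jaz9-1, beside -0.03 for all genes, and by -0.02 in Col-0, beside -0.02 for all genes.

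**Figure D1:**
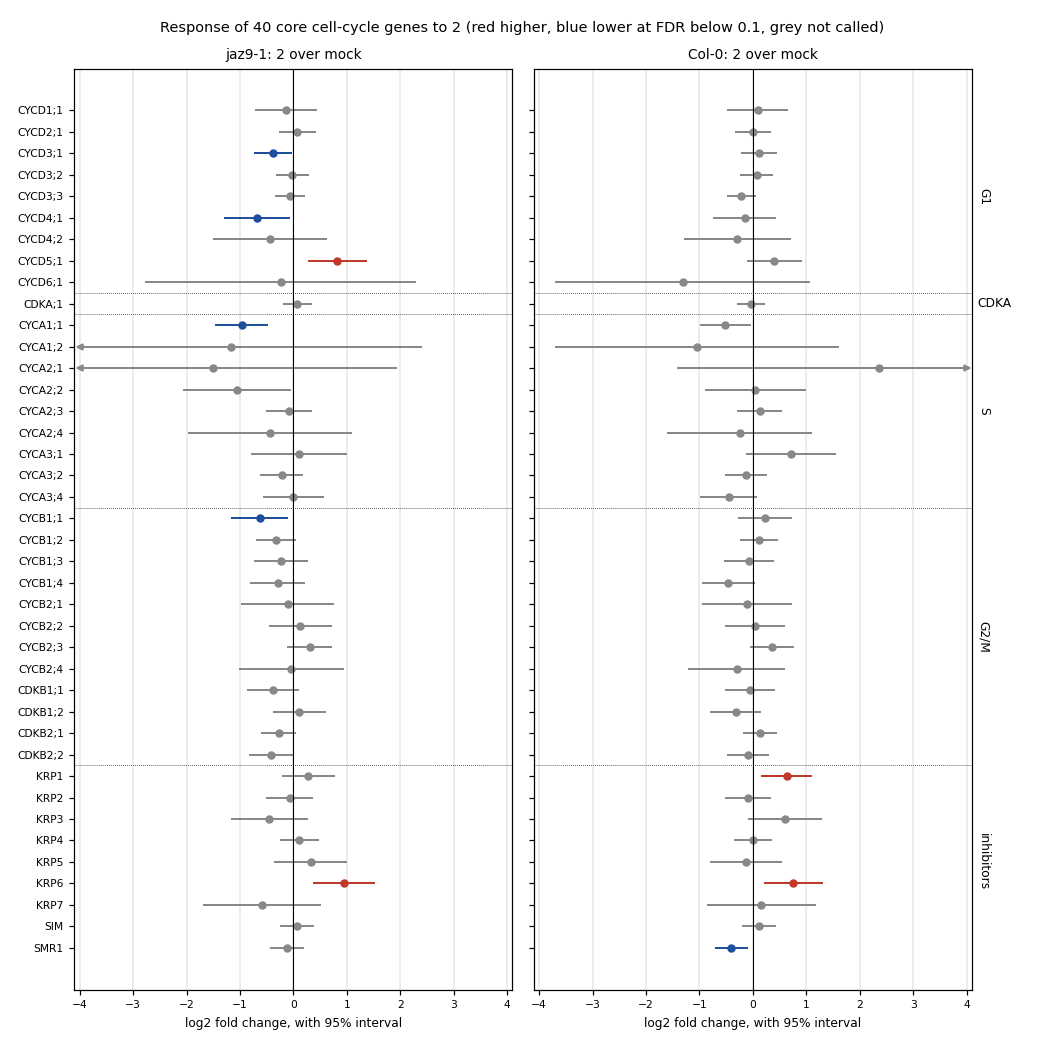
log2 fold change of 2 over mock for the 40 tested members in jaz9-1 (left) and Col-0 (right), with 95% intervals, where arrowheads mark intervals that run past the axis, and colour marks genes called at adjusted p below 0.1. The called members are 6 in jaz9-1 and 3 in Col-0, KRP6 alone is called in both, and the widest intervals belong to CYCD6;1 (AT4G03270), CYCA1;2 (AT1G77390) and CYCA2;1 (AT5G25380), which had few counts.

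Of the D-type cyclins, AT4G37630 was higher after 2 and AT5G65420 and AT4G34160 were lower, all in jaz9-1. AT4G37630, a D-type cyclin tied to natural variation in endoreduplication, had 10.2, 7.65 and 9.70 CPM in jaz9-1 with 2, against 5.93, 5.26 and 4.51 CPM in jaz9-1 with mock. All 3 libraries with 2 were above all 3 with mock. Its log2 fold change was 0.82 ± 0.26 (adjusted p = 0.0189), and it stayed called without any one library (adjusted p at most 0.0805), but not when the 2 groups were fitted alone (adjusted p = 0.107). In Col-0 the libraries with 2 had 8.36, 9.83 and 7.59 CPM, against 7.38, 5.80 and 6.22 CPM with mock. These also did not overlap, yet the difference of 0.40 ± 0.25 did not pass (adjusted p = 0.302). The 2 responses of AT4G37630 were not separated by the test of the genotype difference (0.42 ± 0.36, adjusted p = 0.711).

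AT5G65420, a D-type cyclin known from the stomatal lineage of the hypocotyl and from lateral roots, had 7.27, 6.48 and 3.04 CPM in jaz9-1 with 2, against 11.1, 6.77 and 10.4 CPM in jaz9-1 with mock. The groups overlapped, and replicate 3 with 2, the library with the fewest counts, was the lowest of the 24 libraries. On the log2 scale the change was -0.68 ± 0.29 (adjusted p = 0.0900). It lost its call without replicate 3 with 2 (-0.43, adjusted p = 0.342), without replicate 2 with 2 (-0.76, 0.111), without mock replicate 1 (-0.55, 0.254) and without mock replicate 3 (-0.60, 0.217). AT4G34160, which holds leaf cells in the mitotic cycle in response to cytokinin, had 24.2, 18.9 and 17.5 CPM in jaz9-1 with 2, against 29.7, 26.4 and 24.2 CPM in jaz9-1 with mock. Its groups met at 24.2 CPM. The log2 fold change of -0.38 ± 0.16 (adjusted p = 0.0928) lost its call without mock replicate 1 (-0.30, 0.264), mock replicate 2 (-0.39, 0.145), replicate 2 with 2 (-0.33, 0.232) or replicate 3 with 2 (-0.29, 0.274).

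Its relatives CYCD3;2 (AT5G67260) and AT3G50070, which act with it in leaf growth, were not called. AT5G67260 had 53.7, 40.04 and 46.0 CPM in jaz9-1 with 2, against 51.2, 45.5 and 46.6 CPM with mock, and 43.0, 48.2 and 43.2 CPM in Col-0 with 2, against 35.9, 47.6 and 44.3 CPM with mock. The groups overlapped in both genotypes, with log2 fold changes of -0.03 (95% interval -0.32 to 0.26) and 0.07 (-0.21 to 0.35). For AT3G50070 the intervals were -0.33 to 0.20 in jaz9-1 and -0.47 to 0.05 in Col-0. CYCD2;1 (AT2G22490), a sucrose-responsive D-type cyclin, spanned 19.8 to 33.6 CPM over all 24 libraries, and CYCD1;1 (AT1G70210) spanned 4.48 to 13.8 CPM. Few counts were behind CYCD4;2 (AT5G10440), at 0.875 to 4.63 CPM, and AT4G03270, the cyclin of the formative division of the root ground tissue, at 0 to 2.23 CPM. In Col-0 none of the 9 tested D-type cyclins was called with 2.

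AT3G48750, the kinase that partners most plant cyclins through the cycle, was not called in any comparison. It had 67.0, 58.2 and 84.1 CPM in jaz9-1 with 2, against 69.3, 66.4 and 62.2 CPM in jaz9-1 with mock, and 60.8, 64.7 and 60.4 CPM in Col-0 with 2, against 62.7, 60.8 and 66.6 CPM in Col-0 with mock. The libraries overlapped in each comparison. The 95% interval for 2 over mock ran from -0.17 to 0.32 on the log2 scale in jaz9-1 and from -0.28 to 0.20 in Col-0. With 2e the intervals were -0.25 to 0.24 and -0.34 to 0.14 in the same genotypes, and with 12 they were -0.41 to 0.08 and -0.29 to 0.19.

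Among the A-type cyclins, AT1G44110 of the CYCA1 group was lower after 2. This cyclin, a relative of TAM that accumulates before mitosis, had 15.1, 8.03 and 5.71 CPM in jaz9-1 with 2, against 17.4, 17.8 and 24.4 CPM in jaz9-1 with mock. The groups did not overlap, and replicate 3 with 2 was again the lowest. On the log2 scale it changed by -0.97 ± 0.24 (adjusted p = 0.00221). It passed in every alternative run, and lay between -0.74 and -1.51 when single libraries were left out. The value of -1.51 was that without replicate 1 with 2. In Col-0 AT1G44110 had 11.8, 14.8 and 12.8 CPM with 2, against 16.3, 20.08 and 19.5 CPM with mock. There too all 3 treated libraries were below all 3 mock libraries, with a log2 fold change of -0.51 ± 0.22 that missed the threshold (adjusted p = 0.116). The genotype difference in the response was -0.46 ± 0.32 (adjusted p = 0.628).

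The other A-type cyclins were not called with 2 in either genotype. CYCA3;2 (AT1G47210), from a group active at the start of S phase, had 27.3, 22.3 and 31.4 CPM in jaz9-1 with 2, against 31.4, 32.3 and 30.4 CPM with mock, with a 95% interval of -0.61 to 0.16. CYCA2;3 (AT1G15570), which holds back endoreduplication with AT3G54180, spanned 8.89 to 17.4 CPM over the 24 libraries, and CYCA3;4 (AT1G47230) spanned 5.93 to 16.5 CPM. CYCA2;2 (AT5G11300) had 2.40, 2.72 and 0.761 CPM in jaz9-1 with 2, against 3.76, 4.81 and 4.22 CPM with mock. Its libraries did not overlap, and its log2 fold change of -1.06 ± 0.49 missed the threshold (adjusted p = 0.120). AT1G77390 (TAM), whose known role is in meiosis, reached 1.44 CPM at most and AT5G25380 reached 1.46 CPM, so their intervals were wide. Of 9 A-type cyclins, 8 had a log2 fold change below 0 with 2 in jaz9-1 (median -0.44) and 5 in Col-0 (median -0.13).

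In the G2/M class AT4G37490 of the CYCB1 group was lower after 2 in jaz9-1. AT4G37490, the cyclin whose promoter serves as the standard reporter of cells at G2/M, had 5.91, 7.90 and 7.04 CPM in jaz9-1 with 2, against 13.6, 9.10 and 9.69 CPM in jaz9-1 with mock. The groups did not overlap, and mock replicate 1 stood well above the rest. Its log2 fold change was -0.63 ± 0.25 (adjusted p = 0.0633). It was not called without mock replicate 1 (-0.45, adjusted p = 0.272), replicate 1 with 2 (-0.51, 0.199) or replicate 3 with 2 (-0.65, 0.103). In Col-0 AT4G37490 had 10.6, 9.55 and 5.86 CPM with 2, against 8.72, 6.81 and 6.57 CPM with mock. These overlapped, with a log2 fold change of 0.23 ± 0.24 (adjusted p = 0.595). The genotype difference in the response to 2 was -0.87 ± 0.34 with an unadjusted p of 0.0169, and it did not pass over all genes (adjusted p = 0.315).

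The other 11 G2/M genes were not called with 2. AT5G06150, also of the CYCB1 group, had 20.3, 22.2 and 14.6 CPM in jaz9-1 with 2, against 25.3, 25.6 and 21.7 CPM with mock, and 23.9, 21.7 and 22.9 CPM in Col-0 with 2, against 24.05, 18.7 and 20.4 CPM with mock. The groups overlapped in both genotypes, and the log2 fold changes were -0.33 ± 0.17 and 0.12 ± 0.16. AT1G76540 and CDKB2;2 (AT1G20930) are the mitotic kinases needed for the shoot meristem. AT1G76540 had 22.0, 19.6 and 19.8 CPM in jaz9-1 with 2, against 21.7, 23.5 and 29.3 CPM with mock, and AT1G20930 had 11.2, 16.6 and 9.51 CPM, against 17.4, 15.5 and 17.5 CPM. Both pairs of groups overlapped, and the log2 fold changes were -0.28 ± 0.15 and -0.42 ± 0.19 (adjusted p = 0.207 and 0.117). Of the 12 genes, 9 lay below 0 in jaz9-1 (median -0.25) and 7 in Col-0 (median -0.06). All 4 CYCB1 genes were below 0 in jaz9-1 and 2 of 4 in Col-0, and of these only AT4G37490 in jaz9-1 was called.

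The inhibitors held the only member called with 2 in both genotypes. KRP6 (AT3G19150), a KRP family inhibitor known for its part in male gametophyte division, had 8.05, 11.8 and 13.9 CPM in jaz9-1 with 2, against 5.65, 6.62 and 4.89 CPM in jaz9-1 with mock. No library with 2 was as low as any with mock. The log2 fold change was 0.95 ± 0.27 (adjusted p = 0.0105) and passed without any one library. In Col-0 KRP6 had 8.61, 9.46 and 9.10 CPM with 2, against 3.74, 3.57 and 8.20 CPM with mock. The treated libraries were close together and mock replicate 3 came near them. The log2 fold change was 0.76 ± 0.26 (adjusted p = 0.0407), and it was 1.32 (0.000701) without mock replicate 3, 0.58 (0.198) without mock replicate 1 and 0.58 (0.193) without mock replicate 2. The genotype difference was 0.19 ± 0.38.

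KRP1, which blocks AT3G48750 complexes and can promote endoreduplication, had 17.3, 14.9 and 23.6 CPM in Col-0 with 2, against 14.5, 9.26 and 12.4 CPM in Col-0 with mock. The groups lay next to each other without overlap, 14.9 CPM above 14.5 CPM. The log2 fold change of 0.63 ± 0.22 (adjusted p = 0.0430) fell below the threshold of a call without replicate 3 with 2 (0.42, adjusted p = 0.299) or mock replicate 2 (0.50, 0.193). In jaz9-1 KRP1 had 12.9, 19.8 and 10.3 CPM with 2, against 11.7, 12.7 and 11.1 CPM with mock, an overlap with a log2 fold change of 0.28 ± 0.23. SMR1 (AT3G10525, also LGO), which sets the share of large endoreduplicated cells in the leaf epidermis, had 21.2, 21.7 and 18.5 CPM in Col-0 with 2, against 28.6, 28.1 and 24.4 CPM in Col-0 with mock. All 3 treated libraries were lower. The log2 fold change of -0.40 ± 0.14 (adjusted p = 0.0490) was not called without mock replicate 1 (-0.34, 0.176), mock replicate 2 (-0.36, 0.148) or replicate 3 with 2 (-0.33, 0.206). In jaz9-1 SMR1 overlapped between 2 and mock (-0.12 ± 0.15), and the genotype differences of KRP1 and SMR1 did not pass (adjusted p = 0.735 and 0.650).

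**Figure D2:**
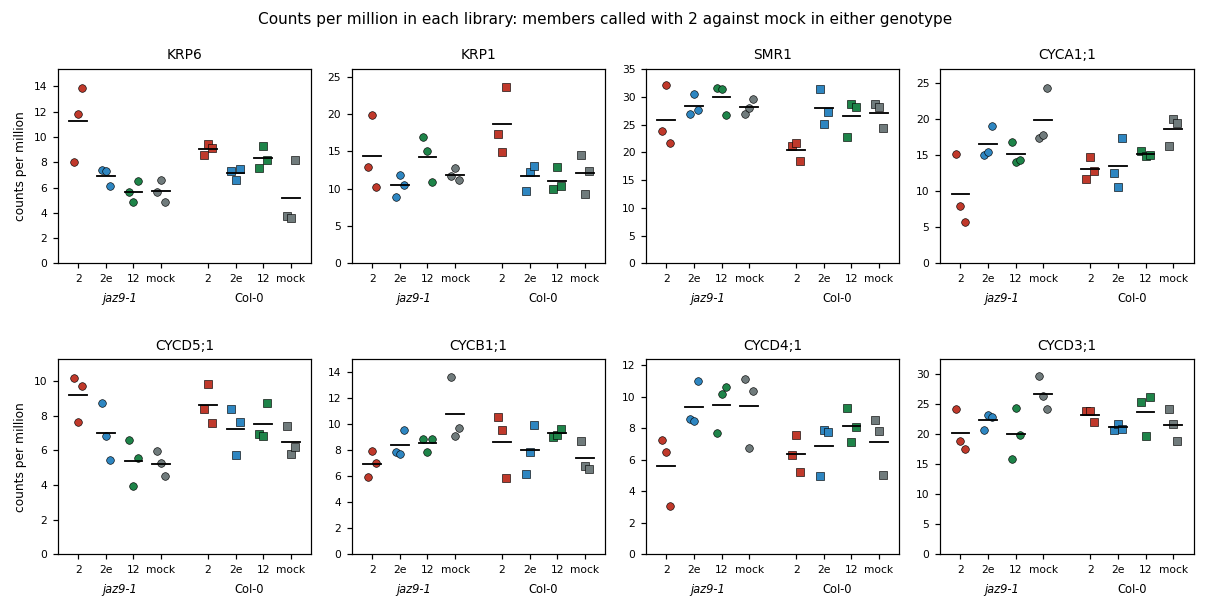
CPM in each library (points, 3 per group) and group means (lines) for the 8 members called with 2 against mock in either genotype, with jaz9-1 on the left and Col-0 on the right of each panel. For KRP6 the libraries with 2 are above those with mock in both genotypes, 8.05 to 13.9 CPM in jaz9-1 and 8.61 to 9.46 CPM in Col-0, and for CYCA1;1 (AT1G44110) they are below them in both.

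SIM (AT5G04470), the founding inhibitor of the SIAMESE family that stops trichome cells from dividing, was not called with 2. It had 29.4, 37.3 and 32.9 CPM in jaz9-1 with 2, against 29.8, 32.3 and 32.9 CPM with mock, and 27.9, 21.7 and 29.02 CPM in Col-0 with 2, against 22.2, 27.9 and 23.3 CPM with mock. The groups overlapped in both genotypes, with 95% intervals of -0.24 to 0.36 and -0.19 to 0.41. KRP2 and KRP4, inhibitors known from endoreduplication, lateral roots and the shoot meristem, also overlapped, with 12.1, 19.3 and 16.5 CPM of KRP2 in jaz9-1 with 2, against 11.1, 19.2 and 18.8 CPM with mock. KRP3 (AT5G48820) had 6.76, 3.89 and 1.52 CPM in jaz9-1 with 2, against 6.51, 6.54 and 4.79 CPM with mock, and 6.12, 9.83 and 5.99 CPM in Col-0 with 2, against 4.31, 5.02 and 4.89 CPM with mock. The groups overlapped in jaz9-1, where replicate 1 with 2 was above all 3 mock libraries, and were apart in Col-0. Neither difference was called, and the genotype difference of -1.06 ± 0.48 did not pass (adjusted p = 0.387). KRP5 spanned 2.62 to 8.94 CPM and KRP7 spanned 0.518 to 5.93 CPM over the 24 libraries.

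Summed over the members of a class, the level in a library gives a view of each class as a whole. The D-type cyclins came to 157.2 to 171.0 CPM in jaz9-1 with 2, against 162.1 to 186.6 CPM with mock, and to 152.5 to 162.5 CPM in Col-0 with 2, against 155.4 to 159.8 CPM with mock. The A-type cyclins came to 58.2 to 68.7 CPM in jaz9-1 with 2, against 76.7 to 83.7 CPM with mock, and to 67.3 to 79.2 CPM in Col-0 with 2, against 68.3 to 90.8 CPM with mock. The G2/M genes came to 109.9 to 136.7 CPM in jaz9-1 with 2, against 133.0 to 164.3 CPM with mock, and to 138.2 to 145.7 CPM in Col-0 with 2, against 139.5 to 144.9 CPM with mock. Of these 3 classes, only the A-type cyclins in jaz9-1 had sums with 2 and with mock that did not overlap. The inhibitors came to 119.1 to 151.2 CPM in jaz9-1 with 2, against 119.0 to 131.4 CPM with mock, and to 111.5 to 122.5 CPM in Col-0 with 2, against 105.8 to 114.4 CPM with mock. The inhibitor sums with 2 and with mock overlapped in both genotypes. With 2e the D-type cyclins came to 144.1 to 148.2 CPM in Col-0, below the range with mock, and with 12 the A-type cyclins came to 70.6 to 73.9 CPM in jaz9-1, below the range with mock. Between the genotypes, the inhibitor sums of jaz9-1 were above those of Col-0 with mock, with 2e and with 12. The D-type cyclin sums were above them with mock and with 2e. The G2/M sums of jaz9-1 with 2 were below those of Col-0 with 2. All other class sums overlapped between the genotypes. These sums lean on the genes with the most reads and carry no test.

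**Figure D3:**
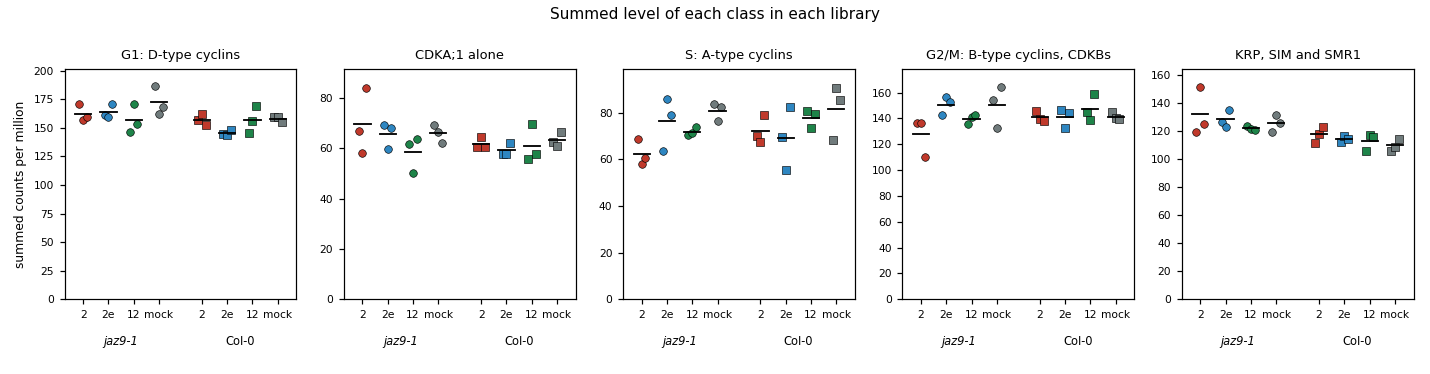
Summed CPM of each class in each library (points) with group means (lines), jaz9-1 left and Col-0 right in each panel. The A-type cyclins of jaz9-1 with 2 lie at 58.2 to 68.7 CPM, below the mock libraries of that genotype, and the lowest G2/M sum, 109.9 CPM, is replicate 3 of jaz9-1 with 2.

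With 2e and with 12 no member was called against mock. In jaz9-1 with 2e 0 of 40 members passed edgeR's test, where 1.97% of all genes were called. An unadjusted p below 0.05 was found for 0 members, beside 1933 of all 20109 genes. In Col-0 with 2e 0 of 40 passed, where 2.75% of all genes were called, and 1 had an unadjusted p below 0.05, beside 1852 of all genes. With 12, 0 of 40 passed in jaz9-1 and in Col-0, where 2.50% and 3.05% of all genes were called. In each, 2 members had an unadjusted p below 0.05, beside 2154 and 2052 of all genes. DESeq2 and limma also called 0 members in these 4 comparisons. With so few genes called at adjusted p below 0.1, the counts of 0 calls do not set the members apart. For 30 of 40 members (75%) in jaz9-1 and 31 (77.5%) in Col-0 the 95% interval for 2e over mock lay within a 2-fold change. The same held for 68.4% and 69.3% of all tested genes. For 12 it held for 30 and 29 members (75% and 72.5%), beside 67.6% and 69.3% of all tested genes.

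The genes called with 2 had these values with 2e and 12. KRP6 had 7.38, 7.32 and 6.13 CPM in jaz9-1 with 2e and 5.64, 4.82 and 6.54 CPM with 12, against 5.65, 6.62 and 4.89 CPM with mock. In Col-0 it had 7.31, 6.62 and 7.45 CPM with 2e and 7.56, 9.26 and 8.18 CPM with 12, against 3.74, 3.57 and 8.20 CPM with mock. In Col-0 all 6 treated libraries lay above the lower pair of mock libraries and around the third. Without Col-0 mock replicate 3, KRP6 was the 1 member called with 2e and with 12. AT1G44110 had 15.1, 15.5 and 19.1 CPM in jaz9-1 with 2e and 16.9, 14.1 and 14.4 CPM with 12, against 17.4, 17.8 and 24.4 CPM with mock. Its log2 fold changes were -0.26 ± 0.22 with 2e and -0.39 ± 0.23 with 12, neither of them called. AT4G34160 in jaz9-1 had 15.9, 24.3 and 19.8 CPM with 12, against 29.7, 26.4 and 24.2 CPM with mock (-0.43 ± 0.16, adjusted p = 0.252), and it was called when replicate 2 with 12 was left out.

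The compounds can be set against each other directly, since dose, time and genotype matched. The 6 pairings were 2e against 2, 12 against 2 and 2e against 12 in each genotype. They share libraries with each other and with the comparisons against mock, so a gene that is unusual in the libraries with 2 enters several of them. In Col-0, 2e against 2 and 12 against 2 each called 2 of 40 members (5%), where 17.5% and 16.9% of all genes were called. KRP1 had 9.75, 12.2 and 13.1 CPM with 2e and 9.90, 12.9 and 10.4 CPM with 12, against 17.3, 14.9 and 23.6 CPM with 2. It was lower with both and without overlap, with log2 fold changes of -0.67 ± 0.22 for 2e (adjusted p = 0.0325) and -0.75 ± 0.22 for 12 (adjusted p = 0.0149). Without replicate 3 with 2 these were -0.46 (0.276) and -0.54 (0.175), and without replicate 1 with 2e the first was -0.58 (0.146).

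SMR1 had 31.5, 25.2 and 27.4 CPM in Col-0 with 2e and 22.7, 28.6 and 28.1 CPM with 12, against 21.2, 21.7 and 18.5 CPM with 2. It was higher with both and without overlap, by 0.45 ± 0.14 with 2e (adjusted p = 0.0261) and 0.38 ± 0.14 with 12 (adjusted p = 0.0784). The first lost its call without replicate 3 with 2 (0.38, 0.148) or replicate 1 with 2e (0.35, 0.184), and the second without any library but replicate 1 with 12 (0.30 to 0.46 over the 6 libraries, adjusted p up to 0.303). KRP6 was not called between compounds in Col-0.

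In jaz9-1, 2e against 2 called 5 of 40 members (12.5%), where 25.5% of all genes were called, and 12 against 2 called 6 of 40 (15%), where 24.2% were. KRP6 had 7.38, 7.32 and 6.13 CPM with 2e and 5.64, 4.82 and 6.54 CPM with 12, against 8.05, 11.8 and 13.9 CPM with 2. It was lower with 2e (-0.67 ± 0.27, adjusted p = 0.0738) and with 12 (-0.96 ± 0.27, adjusted p = 0.0113), without overlap in either. The D-type cyclin AT4G37630 had 6.60, 3.93 and 5.54 CPM with 12, against 10.2, 7.65 and 9.70 CPM with 2, and was lower (-0.76 ± 0.25, adjusted p = 0.0335). The CDKB2 kinase AT1G76540 had 27.0, 27.8 and 29.7 CPM with 12, against 22.0, 19.6 and 19.8 CPM with 2, and was higher by 0.45 ± 0.15 (adjusted p = 0.0319). All 3 pairs of groups with 12 were apart.

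The A-type cyclin AT1G44110 was higher in jaz9-1 with 2e than with 2 (0.71 ± 0.23, adjusted p = 0.0288) and with 12 than with 2 (0.58 ± 0.24, adjusted p = 0.0836), at 15.1, 15.5 and 19.1 CPM with 2e and 16.9, 14.1 and 14.4 CPM with 12, against 15.1, 8.03 and 5.71 CPM with 2. Replicate 1 with 2 was as high as libraries with 2e and 12, and without it the log2 fold changes were 1.25 and 1.12. The D-type cyclin AT5G65420 had 8.55, 8.44 and 11.02 CPM with 2e and 7.71, 10.14 and 10.6 CPM with 12, against 7.27, 6.48 and 3.04 CPM with 2, and was higher by 0.69 ± 0.29 and 0.70 ± 0.29 (adjusted p = 0.0907 and 0.0908). CYCB1;3 (AT3G11520) had 13.2, 12.97 and 11.9 CPM with 2e, against 12.1, 6.35 and 5.71 CPM with 2 (0.59 ± 0.23, adjusted p = 0.0691), and was 1.06 higher without replicate 1 with 2. The B-type cyclin AT1G20610 had 9.72, 10.3 and 9.44 CPM with 2e, against 16.3, 13.5 and 11.2 CPM with 2 (-0.50 ± 0.19, adjusted p = 0.0697). The A-type cyclin AT5G11300 had 3.46, 4.94 and 5.46 CPM with 12, against 2.40, 2.72 and 0.761 CPM with 2 (1.16 ± 0.48, adjusted p = 0.0951).

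These calls between compounds in jaz9-1 leaned on single libraries. Without replicate 3 with 2, AT1G44110 (0.48 and 0.35 for 2e and 12), AT5G65420 (0.43 and 0.45), AT3G11520 (0.42), AT5G11300 (0.85) and KRP6 with 2e (-0.51) were no longer called, with adjusted p from 0.179 to 0.364. Without replicate 2 with 2 the same held for AT1G44110 (0.57 and 0.45), AT5G65420 (0.76 and 0.77), AT3G11520 (0.44), AT1G20610 (-0.52) and KRP6 with 2e (-0.62), and without replicate 1 with 2 for AT1G20610 (-0.34), AT4G37630 with 12 (-0.66) and AT5G11300 (1.32). On the side of 2e and 12, leaving out replicate 1, 2 or 3 with 2e ended 4, 4 and 4 of the 5 calls, with adjusted p up to 0.276. Leaving out replicate 1, 2 or 3 with 12 ended 1, 4 and 4 of the 6 calls, with adjusted p from 0.105 to 0.246. KRP6 with 12 against 2 was the 1 of these calls that passed without each library in turn (-0.78 to -1.17, adjusted p at most 0.067).

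Between 2e and 12 no member was called in jaz9-1 or in Col-0, where 0.0646% and 0% of all genes were called. With an unadjusted p below 0.05 there were 5 members in jaz9-1 and 0 in Col-0, beside 1367 and 810 of all 20109 genes. DESeq2 and limma called 0 members in both. The 95% interval of the difference lay within a 2-fold change for 32 of 40 members (80%) in jaz9-1 and 31 (77.5%) in Col-0. Over all tested genes this held for 70.4% and 72.8%. The members' median standard error of 0.23 and 0.22 sets what could be seen. A missed threshold does not show that the 2 compounds act alike.

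**Figure D4:**
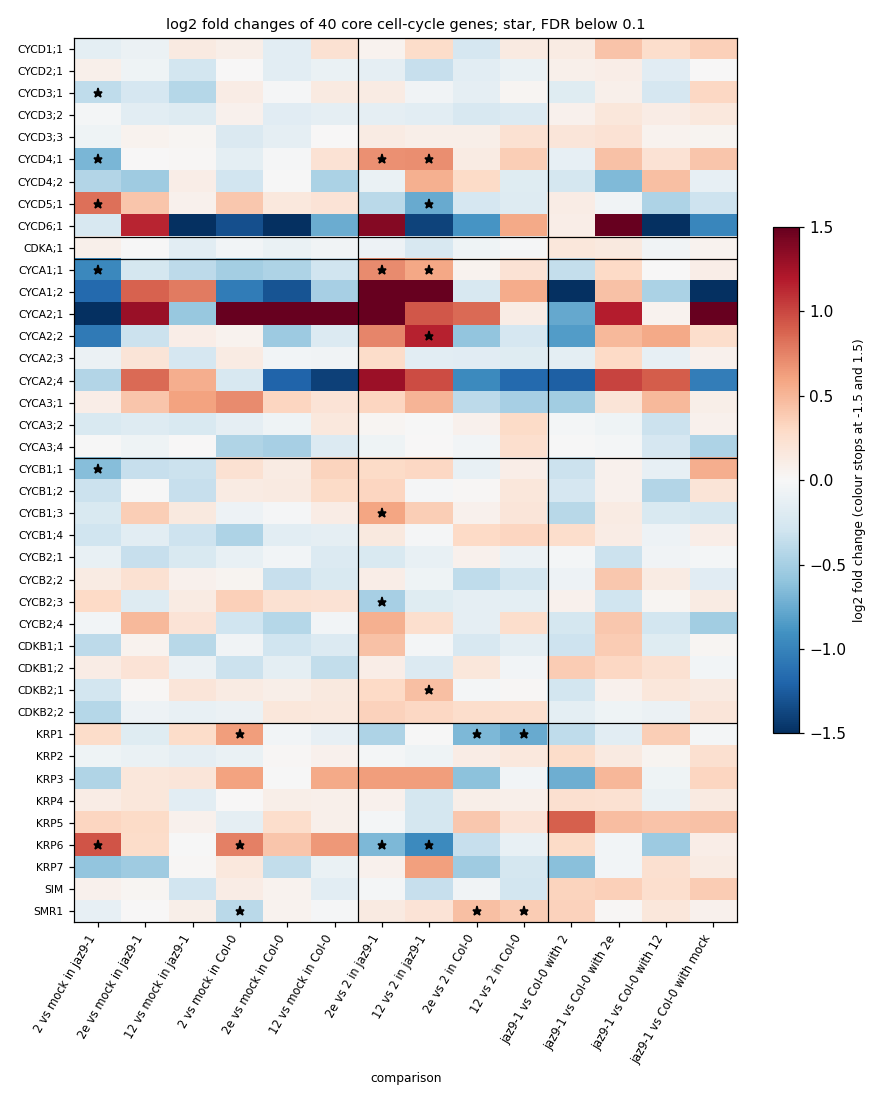
log2 fold changes of the 40 tested members (rows, by class) in the comparisons with mock, between compounds and between genotypes (columns), with stars at adjusted p below 0.1 and a colour scale that stops at -1.5 and 1.5. Stars stand only in comparisons that include 2, and the deep colours of AT4G03270, AT1G77390, AT5G25380 and CYCA2;4 (AT1G80370) belong to genes with few counts and carry no star.

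Between the genotypes no member was called under any treatment. In jaz9-1 against Col-0 0 of 40 passed edgeR's test with 2, 2e, 12 and mock, where 8.28%, 3.35%, 3.42% and 2.53% of all genes were called. In the same order 4, 1, 2 and 2 members had an unadjusted p below 0.05, beside 3691, 2687, 2452 and 2630 of all 20109 genes. DESeq2 and limma called 0 as well, except that both called KRP5 with 2. KRP5 (AT3G24810), an inhibitor tied to root growth and endoreduplication, had 6.11, 6.09 and 7.42 CPM in jaz9-1 with 2, against 3.67, 2.62 and 4.04 CPM in Col-0 with 2. The groups were apart, with a log2 fold change of 0.90 ± 0.32 just past the threshold (adjusted p = 0.108). When replicate 1 of jaz9-1 with 2 was left out, 4 members were called, with AT1G44110, AT3G11520 and KRP3 lower and SIM higher. The 8.28% belongs to the fit with all libraries. The share of all genes called in this refit is not given here, so these 4 calls do not set the members apart.

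SIM was not called between the genotypes under any treatment. It had 29.4, 37.3 and 32.9 CPM in jaz9-1 with 2, against 27.9, 21.7 and 29.02 CPM in Col-0 with 2, and 29.8, 32.3 and 32.9 CPM in jaz9-1 with mock, against 22.2, 27.9 and 23.3 CPM in Col-0 with mock. The jaz9-1 libraries were above the Col-0 libraries in both, but the log2 fold changes of 0.33 ± 0.15 and 0.38 ± 0.15 did not pass (adjusted p = 0.216 and 0.234). With 2e it had 35.7, 26.9 and 34.8 CPM in jaz9-1, against 21.7, 27.3 and 26.8 CPM in Col-0, which overlapped (0.35 ± 0.14, adjusted p = 0.244). With 12 it had 24.6, 23.8 and 29.5 CPM in jaz9-1, against 23.1, 20.9 and 21.6 CPM in Col-0, without overlap (0.25 ± 0.15, adjusted p = 0.529). AT4G37490 with mock was 0.54 ± 0.24 higher in jaz9-1 (adjusted p = 0.317). For the genotype difference in the response, 0 of 40 members were called with 2, 2e or 12, where 0.741%, 0% and 0.00497% of all genes were. With an unadjusted p below 0.05 there were 3 members for 2, namely AT4G37490, KRP3 and AT4G34160, 1 for 2e and 2 for 12. Over all 20109 genes there were 2298, 871 and 1181. DESeq2 and limma called 0 members for all 3 compounds. Calls in jaz9-1 that are missing in Col-0 are therefore not shown to be particular to jaz9-1.

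Further genes of the pathway, taken from lists by function, were read for 2 against mock in the same way, first in jaz9-1. Of 5 activators of the anaphase-promoting complex, which marks mitotic cyclins for destruction, 3 were lower, of 13 genes of mitosis and cytokinesis 5 were lower, and of 16 genes of replication licensing and DNA precursor supply 7 were lower and 1 was higher. Of 9 RBR, E2F and DP genes DEL1 and DPA were lower, and of 11 other SMR inhibitors SMR7 was lower (-2.64 ± 1.065, adjusted p = 0.0722). SMR7 had few counts, from 0 CPM in replicate 2 with 2 to 1.92 CPM in mock replicate 3. No gene of its list was called without replicate 3 with 2 or without mock replicate 1. None of 7 CDK-activating kinases and CDK partners, 4 MYB3R factors or 2 other cyclins was called. Over all tested genes 14.2% were lower with 2 in jaz9-1. The medians were -0.81 for the activators, -0.40 for mitosis and cytokinesis and -0.42 for replication, beside -0.03 for all genes. In Col-0 with 2 the only gene of these lists that was called was AT5G59360, of the SMR family (-1.98 ± 0.80, adjusted p = 0.0836). Over all tested genes 23.1% were called there, in either direction. The medians of the same 3 lists were -0.06, -0.09 and -0.16 in Col-0, beside -0.02. The genotype difference in the response to 2 called 0 genes of these lists, where 0.741% of all genes were called.

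**Figure D5:**
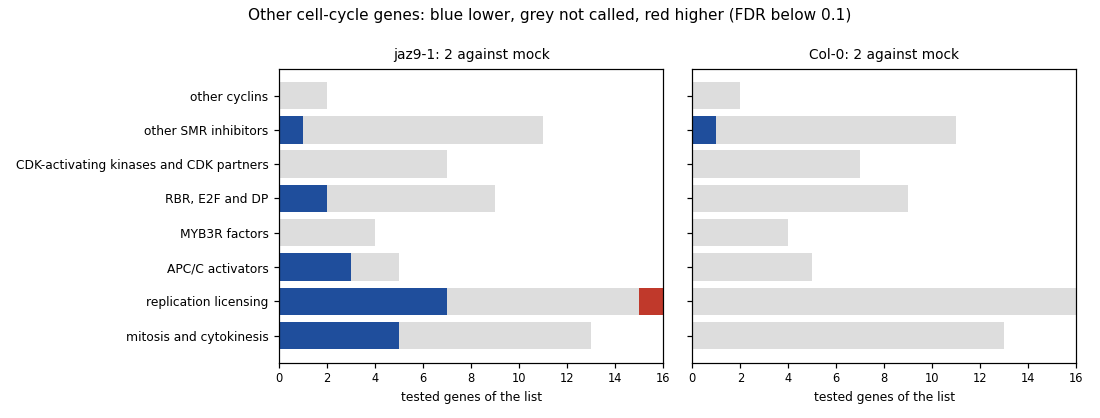
Number of tested genes in each list of other cell-cycle genes that were lower (blue), not called (grey) or higher (red) with 2 against mock, in jaz9-1 (left) and Col-0 (right). In jaz9-1 3 of 5 anaphase-promoting complex activators, 7 of 16 replication genes and 5 of 13 mitosis genes are blue, against none of each in Col-0. Over all tested genes 14.2% were lower in jaz9-1, and 23.1% were called in Col-0 in either direction. No gene of these lists was called for the genotype difference in the response to 2.

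CDC20.1, a mitotic activator of the anaphase-promoting complex, had 15.9, 13.9 and 10.3 CPM in jaz9-1 with 2, against 28.8, 21.4 and 27.9 CPM in jaz9-1 with mock. The groups were well apart (-0.92 ± 0.19, adjusted p = 0.000284). Its neighbouring near-identical copy CDC20.2 changed by -0.92 ± 0.25, and reads may be split between the 2 copies. PCNA1, the sliding clamp of DNA polymerase, had 37.8, 37.6 and 31.0 CPM with 2, against 52.8, 49.9 and 55.6 CPM with mock (-0.56 ± 0.12, adjusted p = 0.000536). MCM5 and MCM3, subunits of the replicative helicase, changed by -0.84 ± 0.19 and -0.70 ± 0.16 without overlap. POK2, a kinesin that places the division plane, had 3.70, 2.46 and 2.66 CPM, against 6.08, 6.32 and 7.001 CPM (-1.10 ± 0.30, adjusted p = 0.00702). DEL1, an E2F family repressor that holds back endoreduplication, had 6.24, 3.76 and 4.95 CPM, against 12.2, 9.55 and 9.01 CPM (-1.003 ± 0.25, adjusted p = 0.00305). BUBR1, a spindle checkpoint protein, had 6.43, 2.85 and 0.571 CPM, against 6.37, 9.17 and 10.6 CPM, and overlapped.

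The counts were lower when the 2 libraries with the fewest reads were left out, a fit with fewer libraries. Without replicate 3 of jaz9-1 with 2 and replicate 1 of jaz9-1 with mock, 1 of 5 activators, 4 of 16 replication genes and 3 of 13 mitosis genes were lower, where 9.82% of all genes were. The medians of these lists were then -0.47, -0.33 and -0.29. Among the members AT4G37630 and AT1G20610 were higher and AT1G44110 was lower. AT4G37490 was then at -0.46 (adjusted p = 0.324) and KRP6 at 0.76 (0.114). This setting was chosen after the counts were seen, and the part of fewer libraries in the lower counts was not tested.

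Markers of the organs and cell types in a seedling were read beside these results. None of 5 root meristem markers was called with 2 in either genotype, and their sum was 31.0 to 38.4 CPM in jaz9-1 with 2, against 35.6 to 38.6 CPM with mock, and 32.03 to 38.2 CPM in Col-0 with 2, against 28.0 to 44.4 CPM with mock. Of the shoot meristem markers only 2 could be tested, and WUS and CLV3 were at 0 CPM in most libraries. Their sum was 11.03 to 14.3 CPM in jaz9-1 with 2, against 16.1 to 18.1 CPM with mock, and 12.5 to 15.3 CPM in Col-0 with 2, against 14.8 to 21.8 CPM with mock, so that it overlapped in Col-0 and not in jaz9-1. CLV1, the receptor of the shoot stem cell signal, was lower in Col-0 (-0.45 ± 0.18, adjusted p = 0.0858). Of 5 leaf and cotyledon markers 3 were higher with 2 in jaz9-1 and LHCB2.1 was lower in Col-0. Over all tested genes 29.2% and 23.1% were called, in either direction. The markers' sum was 27754 to 33974 CPM in jaz9-1 with 2, against 23827 to 24812 CPM with mock. In Col-0 it was 25631 to 26455 CPM with 2, against 26414 to 27484 CPM with mock. Most of it was RBCS1A, at 19671 to 25808 CPM in jaz9-1 with 2, against 16451 to 18199 CPM with mock. LHCB1.1 and LHCB2.1 overlapped in jaz9-1. In Col-0 the libraries with 2 were above those with mock for RBCS1A and LHCA1, and below them for LHCB1.1 and LHCB2.1. Of 5 differentiated root markers 1 was lower in each genotype, and their sum was 50.9 to 69.6 CPM in jaz9-1 with 2, against 55.0 to 73.2 CPM with mock, and 45.1 to 52.2 CPM in Col-0 with 2, against 53.3 to 63.9 CPM with mock. The part of such shifts in the levels of the cell-cycle genes was not tested.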

How the data were processed

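Total RNA of 24 seedling libraries was sequenced, and per the submitters' processing notes reads were handled with bcl2fastq, Trimmomatic, HISAT2 and featureCounts against TAIR10. The authors deposited raw counts per gene, used here. Their DESeq2-normalized table was not used, since it derives from the same counts. Groups came from the sample labels. Genes passing edgeR's filterByExpr were kept, TMM-scaled, and fitted over all 8 groups with edgeR 4.0.16 (R 4.3.3, with glmQLFit and glmQLFTest, 19 comparisons, Benjamini-Hochberg over 20109 genes, common biological coefficient of variation 0.186). CPM are counts scaled to 1000000 per TMM-scaled library. The script was tested on simulated data.

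The members, gene lists and comparisons were chosen with earlier results of these data known. By rule, any member could be named, with values per library for called members (up to 12 per comparison) and for up to 4 others per class by mean CPM, and of other lists up to 3 called genes of lowest adjusted p. Values beyond this, the marker sums among them, were chosen after they were seen. Locus tags of all 41 members matched RefSeq TAIR10.1, used for upstream windows; it may differ from the authors' annotation. Alternatives were DESeq2 1.42.0, limma 3.58.1 on quantile-normalized log2 CPM, RLE scaling, no filter beyond 1 count, the compared groups alone, the replicate block, adjusted p below 0.05, and leaving out each library. No groups reached 4 libraries, so no test of single outlying libraries was made.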

Additional observations from a re-analysis of the deposited data

How the results depend on the processing

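In 336 checks of a called member under an alternative none reversed its direction, 226 kept the call and 110 fell past the threshold. The threshold of 0.05 keeps the same fit and could not reverse a direction, and the other alternatives reuse the same libraries. AT1G44110 (2 against mock) and KRP6 (12 against 2), both in jaz9-1, kept theirs in all 14. Counts of called members for 2 against mock in jaz9-1, 6, became 3 at adjusted p below 0.05, 2 with the compared groups alone and 3 without both libraries with the fewest counts, a setting chosen after seeing the data. For 2e against 2 in jaz9-1, 5 became 1, 0 and 2 under the same 3 settings and 2 without the count filter. For 12 against 2 in jaz9-1, 6 became 3, 2 and 3. For 12 against 2 in Col-0, 2 became 1 at adjusted p below 0.05 and 1 without the count filter. For jaz9-1 against Col-0 with 2, 0 became 1 with DESeq2 and 1 with limma. The replicate numbers did not pair the libraries (0 of 16 comparisons had every same-number correlation over 0.1, and 13 of 24 libraries correlated best with their own number), and the replicate block gave 1 call there and ended 1 call, AT5G11300 with 12 against 2 (1.12, adjusted p = 0.114).

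Leaving out single libraries gave 0 to 3 calls for 2 against mock in Col-0 and 3 to 7 in jaz9-1. The range was 0 to 1 for 2e and for 12 against mock in Col-0 and for 12 in jaz9-1, 0 to 4 for jaz9-1 against Col-0 with 2, 0 to 2 for 2e and for 12 against 2 in Col-0, 1 to 5 for 2e against 2 and 2 to 8 for 12 against 2 in jaz9-1, and 0 to 2 for the genotype difference in the response to 2. With 3 libraries a group the members' median standard error for 2 against mock, 0.24 in jaz9-1 and 0.23 in Col-0 on the log2 scale, sets the size of change that passes, and 4 members had a mean under 1 CPM. Shares over all genes also moved with the setting. For 2 against mock in jaz9-1, 14.2% of all genes were lower with all libraries. Without replicate 3 with 2 it was 11.9%, without mock replicate 1 11.7%, and without both 9.82%. The counts of this section therefore do not by themselves describe the members.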
